A study of Rattus norvegicus with 6 samples.

Results

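The genes described here are the 5 NF-kB subunit genes Nfkb1, Nfkb2, Rel, Rela and Relb and 5 genes for inhibitors of NF-kB signalling, Nfkbia, Nfkbib, Nfkbie, Nfkbiz and Tnfaip3. They were taken by symbol from a table of 32623 rat genes, in which each of the 10 was listed once, and all 10 were among the 14342 genes with enough counts to be tested. RNA had been sequenced from cultured nucleus pulposus cells, which fill the soft centre of the intervertebral disc, in 2 groups of 3 libraries. One group carried a lentiviral short hairpin RNA against the circadian gene Bmal1 (shBmal1) and the other a negative control hairpin in the same kind of virus (shNC), both for 72 hours. The donors of both groups were male Sprague-Dawley rats, 4 weeks old, whose lumbar disc cells had been grown for 3 to 5 passages. Whether the 3 libraries of a group stand for separate cultures or animals is not stated, and the spread behind each p-value may therefore be technical.

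Bmal1, listed as Arntl, had 0.716, 1.39 and 0.690 FPKM (fragments scaled for transcript length and library depth) in shBmal1, against 8.38, 9.19 and 9.90 FPKM in shNC, so it was lower in each library labelled shBmal1. Total counts were 8773762 to 11679587 in shBmal1 and 44043803 to 49783710 in shNC, a 4.44-fold difference in the mean. Mitochondrial rRNA took 0.722 to 1.31% of counts in shBmal1 and 0.0330 to 0.0602% in shNC. The 10 most abundant genes of each library took 9.05 to 9.91% of counts in shBmal1 and 21.7 to 23.1% in shNC. Every result below comes from libraries that differ in these ways too, and the design cannot tell this apart from the hairpin. The 14 nucleus pulposus markers found summed to 460 to 482 CPM (counts scaled to the library total, and for single genes also by TMM factors) in shBmal1 and 2690 to 2880 CPM in shNC. In shNC most of the sum came from Mgp (mean 1610 CPM). Of the 10 markers tested 1 was higher, 5 were lower and 4 did not pass, against 36.0% higher and 35.3% lower over all tested genes. Their log2 fold changes ran from −5.21 to 1.29, and the notochord genes Tbxt, Shh and Noto were at 0 in all libraries. The part of this marker difference in the results below was not tested.

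NF-kB is a family of transcription factors that work as pairs of subunits. RELA, REL and RELB carry activation domains, whereas NFKB1 and NFKB2 are made as long precursors, p105 and p100, that are cut to the DNA-binding proteins p50 and p52. In resting cells IkB proteins hold the pairs in the cytoplasm until the IKK kinase marks IkB for destruction, and several inhibitor genes are themselves NF-kB targets, which closes a feedback loop. In the disc, NF-kB is best known for driving cytokine and matrix protease genes in response to interleukin-1 and tumour necrosis factor.

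In shBmal1, 8 of the 10 genes rose, none fell and 2 did not pass the test. Among all tested genes 36.0% were higher, 35.3% were lower and 71.3% were called in either direction (edgeR's quasi-likelihood test, adjusted p under 0.05). The median log2 fold change of the 10 was 3.20, against −0.01 over all tested genes, and 6 of the 10 rose at least 8-fold, against 9.48% of tested genes. The 6 were Tnfaip3, Rel, Nfkbib, Nfkbiz, Nfkbia and Relb, while the log2 fold changes of Rela and Nfkb1, the genes of the classical pair, were 0.51 and 0.00. All 8 that rose had groups that did not overlap in CPM, as had 38.2% of tested genes in that direction. With values rescaled to TPM 7 of the 10 were higher and 1 was lower, against 28.3% and 46.6% of tested genes (limma on log2(TPM + 1)). Each of the 10 met the count filter within shNC alone and within shBmal1 alone, so no direction was fixed by the filter. In bulk RNA of this kind, a change in the share of cells that express a gene cannot be told apart from a change in RNA per cell.

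The 10 genes were also compared in their promoters, because several NF-kB family genes are known targets of NF-kB. RefSeq promoter windows (assembly GRCr8, 250 bases before to 50 bases after the annotated start site) were matched by symbol for 9 of the 10, Relb being the gene without one. A match to the kB consensus, the 10-base NF-kB binding motif, was found on either strand in 7 of these 9 windows, against 4.18% of all 33469 windows and 5.15% of the 11049 windows of tested genes. Rela and Nfkbib held none. Stretches of these windows are printed from 5′ to 3′ on the gene's strand with kB matches in capitals. All lie upstream of the start site except that of Nfkb1, which spans it. They show the gene that rose most (Tnfaip3), 4 other risers with a match (Nfkbia, Rel, Nfkbiz, Nfkb2), the 2 genes that did not pass the test (Nfkbie, Nfkb1), and the strongest riser without a match (Nfkbib). The stretch of Tnfaip3 is chr1:15543980-15544169 (reverse strand), that of Nfkbia chr6:78597073-78597262 (reverse strand) and that of Rel chr14:101921939-101922058 (reverse strand). Those of Nfkbiz and Nfkb2 are chr11:58251601-58251720 and chr1:255108254-255108373 (forward strand). Those of Nfkbie, Nfkb1 and Nfkbib are chr9:22947943-22948062, chr2:226805444-226805473 and chr1:93181388-93181507 (reverse strand).
Tnfaip3: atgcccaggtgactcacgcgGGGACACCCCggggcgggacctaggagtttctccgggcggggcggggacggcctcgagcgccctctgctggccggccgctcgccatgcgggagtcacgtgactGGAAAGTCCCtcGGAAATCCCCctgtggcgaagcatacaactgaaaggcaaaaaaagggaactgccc
Nfkbia: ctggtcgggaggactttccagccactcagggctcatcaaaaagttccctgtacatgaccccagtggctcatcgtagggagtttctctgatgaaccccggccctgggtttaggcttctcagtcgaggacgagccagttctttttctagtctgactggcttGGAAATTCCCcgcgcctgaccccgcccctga
Rel: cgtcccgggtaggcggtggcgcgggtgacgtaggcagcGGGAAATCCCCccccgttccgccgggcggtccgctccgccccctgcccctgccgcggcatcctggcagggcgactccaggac
Nfkbiz: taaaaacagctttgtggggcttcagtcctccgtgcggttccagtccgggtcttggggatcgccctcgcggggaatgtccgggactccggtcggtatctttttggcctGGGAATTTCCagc
Nfkb2: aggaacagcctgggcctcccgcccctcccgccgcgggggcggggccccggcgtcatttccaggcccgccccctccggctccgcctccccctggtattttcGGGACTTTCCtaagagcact
Nfkbie: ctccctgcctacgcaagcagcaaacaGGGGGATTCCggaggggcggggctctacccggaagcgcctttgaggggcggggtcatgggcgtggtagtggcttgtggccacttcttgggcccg
Nfkb1: ctctcgacgtcagtGGGAATTTCCagccag
Nfkbib: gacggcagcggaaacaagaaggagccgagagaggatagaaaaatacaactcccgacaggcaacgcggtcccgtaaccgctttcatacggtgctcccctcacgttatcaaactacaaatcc

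Tnfaip3 held 3 kB matches, starting 170, 67 and 55 bases before the start site, and Rel held a pair that overlap by all but 1 base. Nfkbiz and Nfkb1 shared the same 10 bases, at 13 bases before and 4 bases after the start site. Nfkbiz rose 14.8-fold and Nfkb1 did not pass the test. Nfkbib, without a match, rose 16.4-fold, and both genes that did not pass held a match. Over the tested genes with a window, 4.50% of those higher in shBmal1 held a kB match, against 5.27% of those lower and 5.77% of those that did not pass. The E-box CACGTG, the motif bound by BMAL1 with its partner CLOCK, was found among the 9 windows in that of Tnfaip3 alone, 76 bases before the start site and overlapping no kB match. This E-box was in 6.42% of all windows and 9.05% of those of tested genes, with 11.1% among genes higher in shBmal1, 8.13% among genes lower and 7.87% among genes that did not pass. A match is a stretch of letters and was not tested as a binding site.

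**Figure D1:**
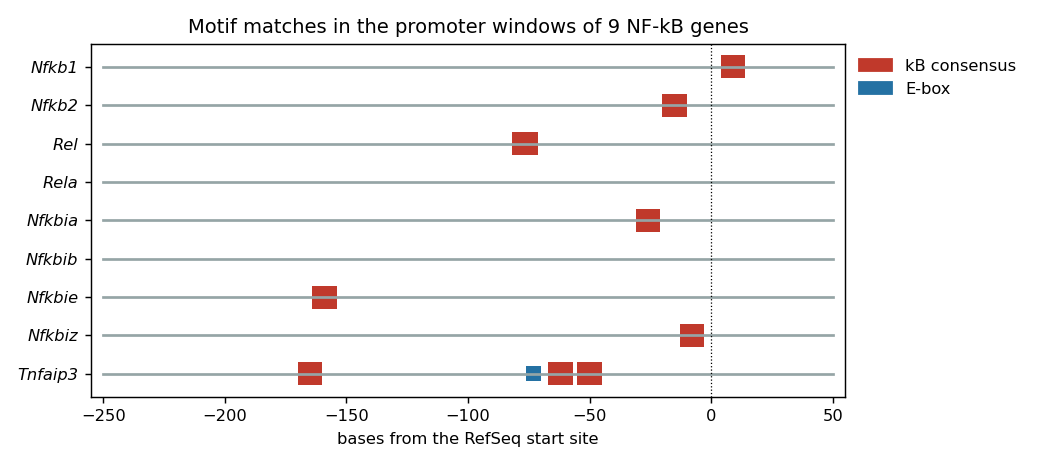
Positions of kB consensus matches (red) and of the E-box (blue) in the promoter windows of 9 NF-kB genes, with bases from the RefSeq start site on the horizontal axis and 1 row per gene. Rela and Nfkbib have empty rows, and Tnfaip3 has 3 kB matches and the E-box.

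Among the subunits, Rel showed the largest rise. Rel, which encodes c-Rel, a subunit best known from lymphocytes (ENSRNOG00000054437, chromosome 14, 108491069 to 108509892, reverse strand; coordinates as in the deposited table, which names no build), had 11.5, 11.9 and 11.7 FPKM in shBmal1, against 0.494, 0.744 and 0.647 FPKM in shNC. The 3 shBmal1 libraries lay close together and far above every shNC library. The log2 fold change was 4.10 ± 0.21 (SE; edgeR, adjusted p = 1.1e-06), or 17.1-fold. It rested on 191 to 262 counts in shBmal1 and 43 to 68 counts in shNC, the smallest shNC counts of the subunits.

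Relb, whose product acts mainly with p52 in the non-canonical arm of the pathway (ENSRNOG00000033235, chromosome 1, 80517411 to 80544825, reverse strand), had 20.6, 24.8 and 23.2 FPKM in shBmal1, against 2.48, 2.04 and 2.57 FPKM in shNC. The groups were far apart, with a log2 fold change of 3.16 ± 0.14 (SE; edgeR, adjusted p = 5.36e-07). Nfkb2, which encodes the p52 precursor p100 (ENSRNOG00000019311, chromosome 1, 266053002 to 266059256, forward strand), had 22.2, 27.4 and 24.9 FPKM in shBmal1, against 9.49, 10.5 and 9.76 FPKM in shNC. It rose by a smaller step than its partner gene, 1.22 ± 0.10 on the log2 scale (SE; edgeR, adjusted p = 1.24e-05), again with no overlap between the groups.

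Rela, which encodes p65, the main activating subunit (ENSRNOG00000030888, chromosome 1, 220992770 to 221003249, forward strand), had 40.2, 50.8 and 54.6 FPKM in shBmal1, against 33.6, 29.5 and 31.8 FPKM in shNC. All shBmal1 libraries were above all shNC libraries, but by a small margin, and the log2 fold change was 0.51 ± 0.11 (SE; edgeR, adjusted p = 0.00444). This call depended on how libraries were scaled. With FPKM rescaled to TPM, which gives each library the same sum over genes, it came to 0.12 and did not pass (limma, adjusted p = 0.441), while the median of all tested genes came to −0.35.

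Nfkb1, which encodes the p50 precursor p105 (ENSRNOG00000023258, chromosome 2, 240773456 to 240866689, reverse strand), had 15.5, 13.6 and 13.9 FPKM in shBmal1, against 13.9, 12.8 and 12.9 FPKM in shNC. The groups overlapped. Its log2 fold change was 0.00 ± 0.09 (SE; edgeR, adjusted p = 0.971), with a 95% confidence interval of −0.20 to 0.20. With TPM it was −0.36 and passed as lower (limma, adjusted p = 0.0064), which is close to the median of all genes on that scale.

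**Figure D2:**
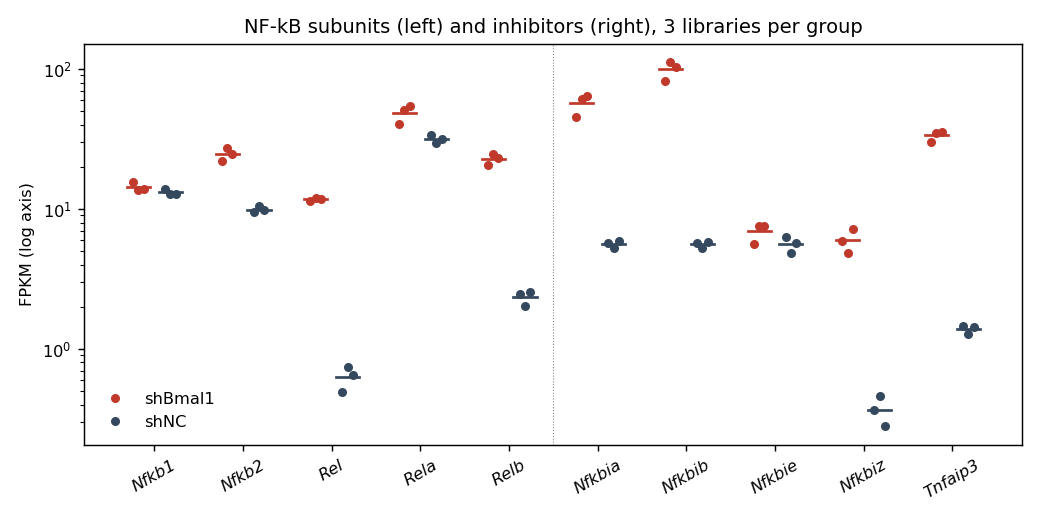
FPKM on a log axis of the 5 subunit genes (left of the dotted line) and the 5 inhibitor genes (right), with points for the 3 libraries of each group and a bar at the mean, shBmal1 in red and shNC in dark blue. The groups are far apart for Rel, Relb, Nfkbia, Nfkbib, Nfkbiz and Tnfaip3, and they overlap for Nfkb1 and Nfkbie.

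All but 1 of the inhibitor genes rose at least 8-fold. Tnfaip3 encodes A20, a ubiquitin-editing enzyme that shuts off signalling upstream of IKK (ENSRNOG00000049517, chromosome 1, 14402913 to 14412807, reverse strand). It had 30.3, 34.9 and 35.6 FPKM in shBmal1, against 1.45, 1.28 and 1.43 FPKM in shNC. With a log2 fold change of 4.48 ± 0.11 (SE; edgeR, adjusted p = 5.17e-08), or 22.4-fold, it was the gene of the 10 that rose most, and both groups were tight.

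Nfkbib encodes IkB-beta, a cytoplasmic inhibitor of RELA and c-Rel pairs (ENSRNOG00000020063, chromosome 1, 86941074 to 86948845, reverse strand). Its level was 82.4, 112 and 104 FPKM in shBmal1, against 5.75, 5.23 and 5.82 FPKM in shNC. Counts were higher in shBmal1 (1082 to 1940) than in shNC (369 to 394) even before scaling, despite the lower depth of shBmal1. The log2 fold change was 4.04 ± 0.13 (SE; edgeR, adjusted p = 1.47e-07). Sirt2, picked after its value was seen, starts 73 bases from the start of Nfkbib on the opposite strand, and its log2 fold change was −0.02 ± 0.11 (SE; edgeR, adjusted p = 0.894), or −0.40 with TPM (limma, adjusted p = 0.0284). Ccer2, also picked afterwards, ends 294 bases from the other end of Nfkbib, again on the opposite strand. It had 5, 25 and 30 counts in shBmal1, against 0, 0 and 4 in shNC, and was higher (edgeR, adjusted p = 0.00362), having met the count filter through shBmal1 alone. None of the 10 genes overlapped another listed gene.

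Nfkbia encodes IkB-alpha, the classical feedback inhibitor (ENSRNOG00000007390, chromosome 6, 76267228 to 76270457, reverse strand). It had 45.5, 61.4 and 64.4 FPKM in shBmal1, against 5.75, 5.26 and 5.89 FPKM in shNC. The shBmal1 libraries varied more than the shNC libraries, but the lowest of them was still far above the highest shNC library. Its log2 fold change was 3.23 ± 0.14 (SE; edgeR, adjusted p = 5.48e-07).

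Nfkbiz encodes IkB-zeta, an atypical nuclear IkB protein that can also act as a coactivator at secondary response genes (ENSRNOG00000031163, chromosome 11, 47243342 to 47271487, forward strand). It had 5.88, 4.83 and 7.23 FPKM in shBmal1, against 0.367, 0.461 and 0.279 FPKM in shNC. The groups were again well apart, at a log2 fold change of 3.89 ± 0.25 (SE; edgeR, adjusted p = 3.8e-06), with the largest standard error of the 10. With quantile-normalized log2(FPKM + 1), a scale that understates changes of low genes, the log2 fold changes were 2.16 for Nfkbiz, 2.77 for Rel and 3.63 for Tnfaip3, and with log2(TPM + 1) they were 2.57, 3.08 and 3.76. All 3 still passed on both scales (limma).

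Nfkbie encodes IkB-epsilon, a slower-acting cytoplasmic inhibitor (ENSRNOG00000019907, chromosome 9, 17828408 to 17835240, reverse strand). It had 5.66, 7.50 and 7.57 FPKM in shBmal1, against 6.29, 4.86 and 5.72 FPKM in shNC. The groups overlapped and the gene did not pass the test, with a log2 fold change of 0.19 ± 0.19 (SE; edgeR, adjusted p = 0.396) and a 95% confidence interval of −0.25 to 0.63. That interval lies wholly below the intervals of Nfkbia (2.90 to 3.56) and Nfkbib (3.73 to 4.34).

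Within shBmal1, replicate 1 had the lowest FPKM of its group for 8 of the 10 genes, the exceptions being Nfkb1, where it was highest, and Nfkbiz. The same library had the lowest total count and the highest share of mitochondrial rRNA of the group, and the part of these in its lower values was not tested. Without that library the 8 calls were the same in number, and the log2 fold changes of Nfkbia, Nfkbib and Tnfaip3 were 3.33, 4.12 and 4.52.

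**Figure D3:**
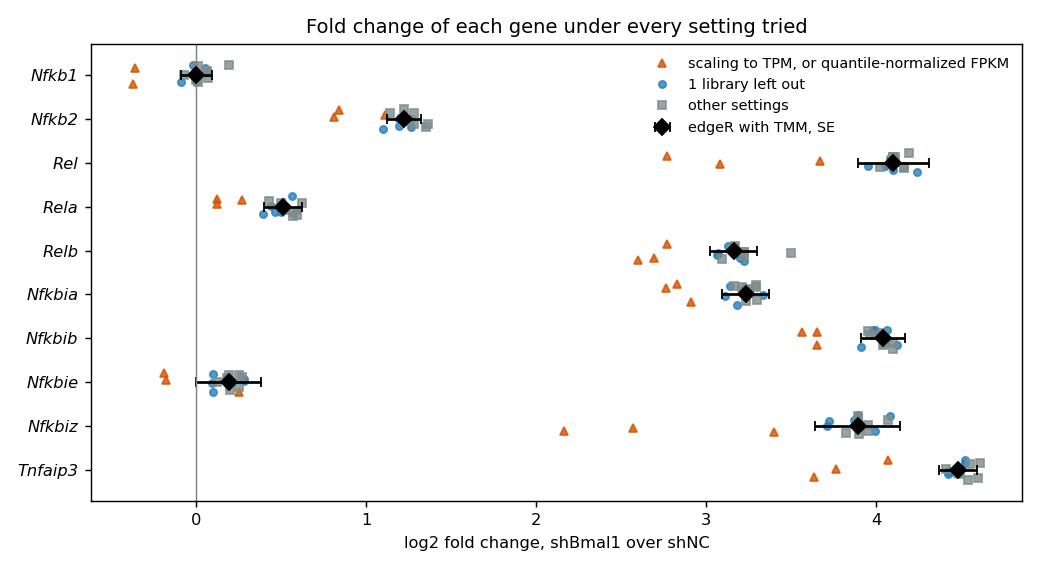
Log2 fold change of shBmal1 over shNC (horizontal axis) of each of the 10 genes under edgeR with TMM scaling (black diamonds, with SE) and under each alternative. Leaving out 1 library (blue) moved the values little, while TPM or quantile-normalized FPKM (orange) gave lower values for the 8 genes that rose, down to 0.12 for Rela, and grey squares are the remaining settings.

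The order of transcript levels, compared per length as FPKM, differed between the groups. In shBmal1 it was led by Nfkbib (99.4 ± 15.3 FPKM; SD, n = 3 here and below), Nfkbia (57.1 ± 10.1) and Rela (48.6 ± 7.47). Tnfaip3 (33.6 ± 2.87), Nfkb2 (24.8 ± 2.61), Relb (22.9 ± 2.14), Nfkb1 (14.3 ± 1.04), Rel (11.7 ± 0.234), Nfkbie (6.91 ± 1.08) and Nfkbiz (5.98 ± 1.20) followed. The neighbours Nfkbia and Rela, Nfkb2 and Relb, and Nfkbie and Nfkbiz had overlapping ranges there. In shNC the order was led by Rela (31.7 ± 2.05 FPKM), Nfkb1 (13.2 ± 0.583) and Nfkb2 (9.90 ± 0.497). Below them Nfkbia (5.63 ± 0.327), Nfkbie (5.62 ± 0.716) and Nfkbib (5.60 ± 0.324) could not be ordered, and Relb (2.36 ± 0.283), Tnfaip3 (1.39 ± 0.0955), Rel (0.628 ± 0.126) and Nfkbiz (0.369 ± 0.091) came last. The 3 classical IkB genes thus had like transcript levels in shNC, whereas in shBmal1 Nfkbib and Nfkbia stood far above Nfkbie.

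Shares and ratios within a library do not depend on how libraries are scaled to each other. Rela made up 36.6, 39.5 and 42.6% of the summed FPKM of the 5 subunits in shBmal1, against 56.1, 53.1 and 55.1% in shNC. The share of Nfkb1 was 11.8 ± 1.98% in shBmal1 and 22.9 ± 0.412% in shNC. Together these 2 genes, whose products form the classical pair, therefore took a smaller part of the subunit transcripts in every shBmal1 library, although neither fell in the edgeR test.

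Relb took 18.7, 19.3 and 18.1% of the subunit sum in shBmal1, against 4.13, 3.67 and 4.45% in shNC. The share of Rel was 9.60 ± 0.725% in shBmal1 and 1.09 ± 0.258% in shNC, and that of Nfkb2 was 20.3 ± 0.933% in shBmal1 and 17.2 ± 1.51% in shNC. The groups did not overlap for any of the 5 shares. The exact permutation p (two-sided) was 0.1 for each share and 0.1 after Benjamini-Hochberg adjustment over the 5, the smallest value that 3 against 3 libraries allow, so no share could pass 0.05.

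**Figure D4:**
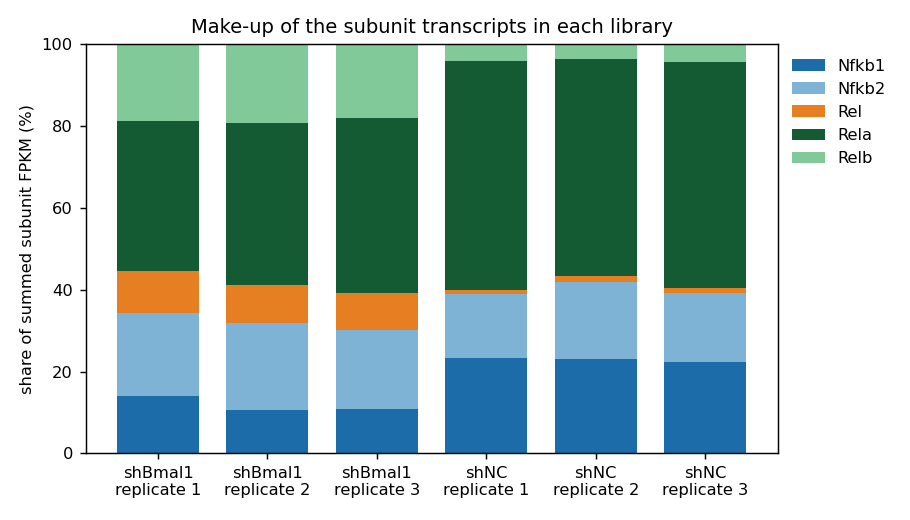
Share of each subunit gene in the summed FPKM of the 5 subunit genes (vertical axis, %), with 1 stacked bar per library and the 3 shBmal1 libraries on the left. Relb and Rel take a larger part and Rela and Nfkb1 a smaller part in each shBmal1 library than in each shNC library.

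The balance of inhibitor to subunit transcripts also differed. The summed FPKM of Nfkbia, Nfkbib and Nfkbie was 134, 181 and 176 in shBmal1, against 17.8, 15.4 and 17.4 in shNC, while that of the 5 subunits was 110, 129 and 128 in shBmal1, against 60.0, 55.6 and 57.7 in shNC. Classical IkB transcripts thus came to 1.21 to 1.41 per subunit transcript in shBmal1 and to 0.276 to 0.302 in shNC. Against Rela alone, Nfkbia stood at a ratio of 1.13 to 1.21 in shBmal1 and 0.171 to 0.185 in shNC, and Tnfaip3 at 0.651 to 0.753 in shBmal1 and 0.0432 to 0.0450 in shNC. Nfkb2 exceeded Nfkb1 in every shBmal1 library (ratio 1.43 to 2.01) and was below it in every shNC library (0.683 to 0.814). For Relb over Rela the ratio was 0.424 to 0.512 in shBmal1 and 0.0691 to 0.0808 in shNC. Each of the 5 log2 ratios had an exact two-sided permutation p of 0.1 (0.1 after adjustment over the 5), again the smallest possible. These are ratios of transcripts, and protein amounts, processing of p100 and nuclear entry were not measured.

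The other parts of the pathway moved in both directions, as did tested genes at large. Over 6 lists of receptors, adaptors, kinases, further regulators, further IkB-like genes and target genes, 37 of 77 tested genes rose, 22 fell and 18 did not pass, with a median log2 fold change of 0.42. Over all tested genes 36.0% rose, 35.3% fell and 71.3% were called in either direction (edgeR). With TPM the split over the lists was 30 higher and 29 lower (limma), and over all tested genes it was 4065 higher and 6681 lower, against 5167 and 5066 with edgeR.

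Of 10 tested receptor genes 5 rose and 3 fell (36.0% and 35.3% over all tested genes), at a median of 0.45. Tnfrsf12a, the receptor for TWEAK, had 669 ± 13.4 CPM in shBmal1 and 132 ± 6.23 CPM in shNC (log2 fold change 2.34; edgeR, adjusted p = 5.51e-08). Tlr4, the receptor for lipopolysaccharide, rose by 1.01 on the log2 scale. Tnfrsf1a, the main receptor for tumour necrosis factor, and Ltbr, the lymphotoxin-beta receptor, fell by 0.70 and 0.46 on the log2 scale.

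Of 18 tested genes for adaptors and ubiquitin ligases between receptors and IKK, 4 rose and 7 fell, at a median of 0.00. The shares over all tested genes were 36.0% and 35.3%. Traf6, a ubiquitin ligase of interleukin-1 and Toll-like receptor signalling, had 103 ± 2.85 CPM in shBmal1 and 10.1 ± 1.24 CPM in shNC (log2 fold change 3.35; edgeR, adjusted p = 1.29e-07), and Traf2 rose by 1.48 on the log2 scale. Irak1 and Tradd fell by 1.15 and 1.43 on the log2 scale. The other 2 that rose, Ripk1 and Malt1, named after their values were seen, passed narrowly (edgeR, adjusted p = 0.0442 and 0.0498). With TPM Ripk1 came to 0.02 and Malt1 to 0.12 and neither passed (limma, adjusted p = 0.921 and 0.501), and without any 1 of the 3 shNC libraries or without shBmal1 replicate 3 the list had 2 genes higher.

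Of 11 genes for kinases and their binding partners 6 rose and 4 fell (36.0% and 35.3% over all tested genes), at a median of 0.62. Tbk1, an IKK-related kinase, had 157 ± 12.3 CPM in shBmal1 and 14.5 ± 0.725 CPM in shNC (log2 fold change 3.44; edgeR, adjusted p = 5.46e-08), whereas its relative Ikbke fell by 3.11 on the log2 scale. Chuk, which encodes IKK-alpha, rose by 1.51, and Tab3, an adaptor of the kinase TAK1, by 2.22 on the log2 scale. The other listed TAK1 adaptors, Tab1 and Tab2, had log2 fold changes of −2.08 and −0.69 (edgeR, adjusted p = 0.000538 and 0.000409). Both were named after their values were seen. Ikbkb, which encodes IKK-beta, fell by 0.38 on the log2 scale (edgeR, adjusted p = 0.00998), was named after its value was seen, and missed the threshold without shNC replicate 3 (adjusted p = 0.0527). Map3k7, which encodes TAK1 and was also named afterwards, did not pass, and its shNC libraries disagreed, with 1325, 1312 and 97 counts. Without shNC replicate 3, which holds the lowest of these, Map3k7 passed as higher at 0.80 on the log2 scale (edgeR, adjusted p = 0.0153).

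Of 13 tested negative regulators outside the 10 genes, 4 rose and 5 fell, at a median of −0.21. These counts are near the shares over all tested genes, 36.0% higher and 35.3% lower. Zc3h12a, an RNase that degrades inflammatory transcripts, rose by 2.43 and Tank by 0.86 on the log2 scale. Cyld, a deubiquitinase that dampens signalling to IKK, had 35.7 ± 2.56 CPM in shBmal1 and 88.9 ± 6.38 CPM in shNC (log2 fold change −1.32; edgeR, adjusted p = 5.31e-06), and Pdlim2 fell by 1.56 on the log2 scale. With TPM 3 were higher and 7 lower, against 28.3% and 46.6% of all tested genes (limma on log2(TPM + 1)). Of the further IkB-like genes, Nfkbil1 rose by 1.73 on the log2 scale. Bcl3, a nuclear IkB protein that partners p50 and p52, had 0, 0 and 4 counts in shBmal1, against 31, 33 and 34 in shNC, and missed the threshold, although its groups did not overlap (log2 fold change −2.61 ± 1.03, SE; edgeR, adjusted p = 0.0509). Bcl3 met the count filter through shNC alone, which largely fixed its direction. Without shBmal1 replicate 3, the one with 4 counts, it passed as lower (edgeR, adjusted p = 0.00668), as it did with TPM (limma, adjusted p = 0.00276). It did not pass without a filter, with a replicate block, or without shBmal1 replicate 1 or 2 (edgeR, adjusted p = 0.0972, 0.11, 0.12 and 0.133).

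NF-kB target genes were mostly higher, with 17 of 23 tested genes rising, 3 falling and 3 not passing, at a median of 1.74. Over all tested genes 36.0% rose and 35.3% fell. Several of these genes were already known to differ in these libraries, so the list is not independent evidence of its direction. Of the 4 with the smallest p, Cxcl1 rose by 5.34, Mmp3 by 4.25, Ptgs2 by 3.58 and Ier3, an early survival gene, by 2.20 on the log2 scale. Icam1, Sdc4 and Tnfaip2, the 3 that fell, did so by 1.11, 0.56 and 0.70 on the log2 scale and were named after their values were seen. Cxcl10, Il6 and Mmp9, which also rose, met the count filter through shBmal1 alone, which largely fixed their direction. The 7 genes not tested included Tnf and Il1b, classical inducers of NF-kB, with at most 7 counts in any library. With TPM 16 were higher and 5 lower, against 28.3% and 46.6% of all tested genes (limma on log2(TPM + 1)).

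**Figure D5:**
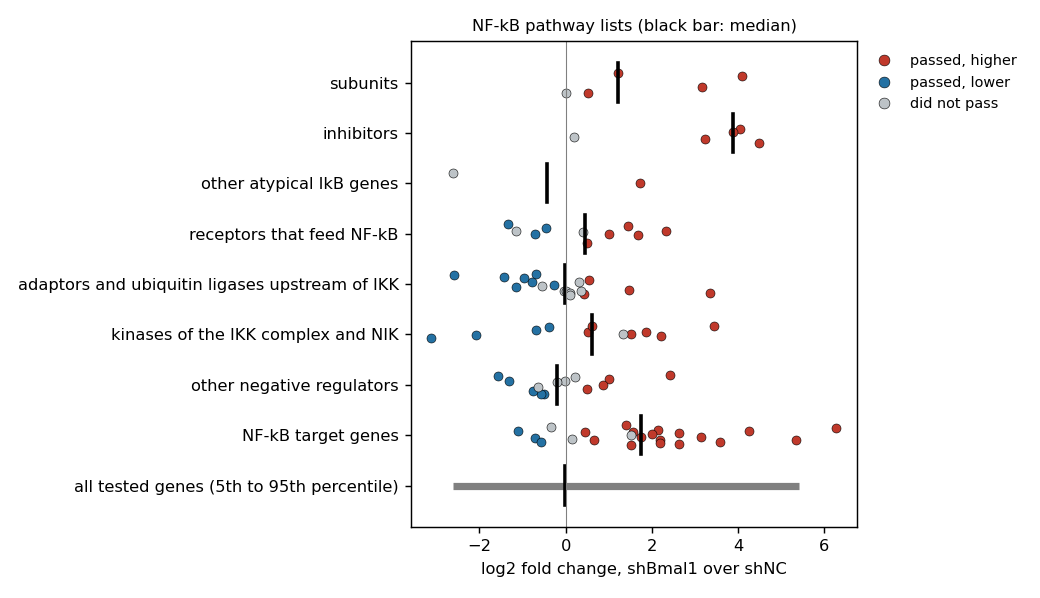
Log2 fold change of shBmal1 over shNC (horizontal axis) of each tested gene of the NF-kB lists, coloured by whether it passed the edgeR test, with a black bar at each median and a grey bar for the 5th to 95th percentile of all tested genes (−2.60 to 5.40). The inhibitors have the highest median (3.89), while the adaptors and negative regulators are centred near 0.

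Because Rel, Relb and Nfkb2 are abundant in immune cells, markers of other cell types were read in the same libraries. The 14 immune markers summed to 32.3 to 46.7 CPM in shBmal1 and 31.0 to 42.4 CPM in shNC, most of it from Cd14. Without Cd14 the other 13 summed to 7.79 to 16.4 CPM in shBmal1 and 0.844 to 2.23 CPM in shNC. Of the 14, 2 had no count in shBmal1 and 7 had none in shNC, among them the macrophage genes Aif1 and Adgre1, the T cell gene Cd3e, the B cell gene Cd79a and the neutrophil gene S100a9. Mpo, a neutrophil granule gene, had no count in any library, and the pan-leukocyte gene Ptprc had 4, 17 and 0 counts in shBmal1, against 0, 0 and 8 in shNC. Of the 3 immune markers tested Cd14 fell by 0.40 on the log2 scale (−0.25 and not passing without shNC replicate 3; edgeR, adjusted p = 0.156), while Cd68 and Lyz2 were higher and met the count filter through shBmal1 alone. The 7 endothelial markers found summed to 8.25 to 12.3 CPM in shBmal1 and 0.402 to 1.25 CPM in shNC, with Cldn5 at 0 in shNC, and the part of either list in the results was not tested. The 3 of these that could be tested, Tek, Vwf and Tie1, were higher and met the count filter through shBmal1 alone. Higher calls made up 36.0% of all tested genes and lower calls 35.3% (edgeR). The endothelial sums rested on few counts, 94 to 115 in shBmal1 and 20 to 55 in shNC. Those of the immune markers without Cd14 rested on 91 to 144 counts in shBmal1 and 42 to 98 in shNC.

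The profiles most like those of the 2 feedback inhibitors were sought as the smallest Euclidean distance between log2 CPM values centred on each gene's mean, over the 6 libraries. The search left out tested genes without an assigned symbol and, through the same filter, any gene whose symbol begins with Rn. For Tnfaip3 the nearest genes were Dsc2, Ppp1r15a and Pcf11, at distances of 0.136 to 0.170. For Nfkbia they were Hmox1, Med6 and Pvr, at 0.173 to 0.234. With 2 groups far apart, this measure mostly reflects a like fold change, from 4.47 for Dsc2 in the first 3 genes and from 3.20 for Hmox1 in the others, on the log2 scale.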

How the data were processed

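Gene expression was measured by RNA sequencing in 3 shBmal1 and 3 shNC libraries. Per the submitters' processing notes, the tools were StringTie 1.3.4d, HISAT2 2.0.4 and cutadapt 1.9, as well as DESeq2 and edgeR, whose roles are unstated. No source used here gives the build, the counting program or the use of strand. The deposited table holds raw counts per gene and FPKM computed by the authors, per the file headers. Among deposited counts of 1 to 40, 32.0% in shBmal1 and 32.5% in shNC were multiples of 4, where evenly spread whole numbers would give 25%. It is therefore possible that 1 count is not 1 independent fragment. The 95% confidence intervals cover counting error and the spread between the libraries of a group, and floors cover counting error only. Precision follows from depth, which was 4.44-fold lower in shBmal1, and 3 counts correspond to 0.257 to 0.342 CPM in shBmal1 and 0.0603 to 0.0681 CPM in shNC. These CPM and the summed marker CPM are relative to the library total, and those of single genes are also TMM-scaled.

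Groups came from the sample titles. After filterByExpr with a minimum count of 10 and a minimum total of 15, TMM-scaled counts were tested in R 4.3.3 by the quasi-likelihood functions of edgeR 4.0.16 (glmQLFTest after glmQLFit) at a Benjamini-Hochberg adjusted p under 0.05 over 14342 genes. TPM were computed from the deposited FPKM, and the alternatives used limma 3.58.1 and DESeq2 1.42.0. No value column was left without a sample. The procedure was checked on simulated counts in which few genes changed, in equal numbers up and down. In the data 71.3% of tested genes were called, so the check does not bear on library scaling here. The sample titles state no pairing and same-numbered libraries did not deviate together, so no replicate block was used in the main test. With 3 libraries per group, a shared culture or preparation could have been missed. The 10 genes and the lists were chosen with earlier results of these data known. By rule, the genes named beyond the 10 were the up to 4 per pathway list with the smallest p, Bmal1 and the 3 genes most like Tnfaip3 and Nfkbia in the search above. Ripk1, Malt1, Ikbkb, Map3k7, Tab1, Tab2, Icam1, Sdc4, Tnfaip2, Cxcl10, Il6, Mmp9, Tnf, Il1b, the neighbours Sirt2 and Ccer2 and cell type markers were named after their values were seen.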

Additional observations from a re-analysis of the deposited data

How the results depend on the processing

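Over 17 alternatives (16 planned, and a gene length offset added after seeing the data), 7 or 8 of the 10 genes were higher, 7 with TPM and 8 otherwise. With TPM 1 gene, Nfkb1, was called lower. Nfkb1, at 0.00, took the values −0.07 without a filter, −0.36 and −0.37 with TPM at pseudocounts of 1 and 0.1, and −0.09 to 0.05 without 1 library, below 0 without shBmal1 replicate 1 and without shNC replicate 2 or 3; the cause was not tested. Nfkbie came to −0.18 and −0.19 with TPM at the same pseudocounts. Sirt2 came to 0.04 with RLE size factors and with DESeq2, 0.07 with shNC thinned to the shBmal1 depth, 0.06 with the length offset, and −0.17 to 0.05 without 1 library. For 36 of the other genes named from the lists or beside them, Tab1 and Tab2 not included, 565 alternative values kept direction and call. Of the remaining values 28 no longer passed, 8 newly passed and 6, all of Sirt2, changed sign. The shares and ratios kept their direction with CPM in place of FPKM and without any 1 library, the Nfkb2 share being the smallest at 2.44 to 3.93 percentage points. The genes higher over the 6 lists numbered 34 to 38 and those lower 18 to 26 without 1 library. Same-numbered libraries of the 2 groups did not deviate together (correlations of −0.053, −0.011 and 0.012), and a replicate block left 8 of the 10 genes higher and called 9415 genes in all, against 10233. Depth limits the low genes: Rel and Nfkbiz in shNC rested on 43 to 96 counts, and Bcl3 on at most 4 in shBmal1.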
